A study of Mus musculus with 16 samples.

Results

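The growth hormone axis of the liver is described here by 10 genes: the receptor gene Ghr, the transcription factor gene Stat5b, the feedback gene Socs2, the circulating outputs Igf1 and Igfals, the transcriptional repressor genes Bcl6 and Cux2, and the STAT5-dependent enzyme genes Cyp4a12a, Cyp4a12b and Hsd3b5. They were chosen by annotated gene symbol with earlier results of these data known, as were the lists of other genes below. All 10 were found among the 23279 named genes of the arrays. Bulk RNA from liver tissue or liver tumours of male mice aged 16 months was hybridised to oligonucleotide arrays, with a single array for each sample. Mutant mice had a conditional (floxed) Axin1 allele and the Alfp-Cre transgene, whose Cre recombinase is active in the embryonic hepatocyte lineage, and these mice develop liver tumours with age. Control livers came from 3 mice described as non-deleted (mice 10, 11 and 12). Which other liver cells lost Axin1 is not stated. The sources used here do not state whether these carried the floxed allele or the transgene, nor the strain. Non-tumoral adjacent liver came from 5 mutant mice (81, 121, 123, 124 and 1931), and the 8 tumours came from 6 mutant mice (81, 90, 93, 121, 123 and 124). Mouse 121 gave 3 tumours, 1 unnumbered and those numbered 2 and 3, and mice 81, 121, 123 and 124 gave both tumour and adjacent liver.

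Pulses of growth hormone from the pituitary act on hepatocytes through the growth hormone receptor, which activates the kinase JAK2 and the transcription factor STAT5b. STAT5b drives Igf1, the main endocrine mediator of body growth, and Igfals, the acid-labile subunit that keeps IGF1 in a long-lived serum complex, together with inhibitors that end the signal, such as SOCS2. In male mice, whose pulses are far apart, the pathway also maintains male-specific liver enzymes. The repressor BCL6 is higher in male liver and CUX2 is a female-enriched repressor of male-biased genes.

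Values are log2 expression, so a difference of 1 is a 2-fold difference. Array medians lay between 4.37 and 4.50, and precision is limited by how few arrays each group has. The mean of Axin1, the deleted gene, was 5.26 ± 0.20 in the 3 control mice. It was 4.20 ± 0.21 in the 5 mice with adjacent tissue and 4.44 ± 0.31 in the 6 mice with tumours (all SD), and each of the 13 arrays of mutant mice lay below every control. Which exons its probe set covers is unknown here, so the value checks the labels but not the extent of deletion. The 8 hepatocyte markers present, such as Alb, were bright in all samples, and their mean lay between 11.8 and 11.9 in control and adjacent liver and between 11.6 and 11.9 in tumours. Alb and Ttr, with control means of 12.4 and 12.7, were near the highest value of the arrays, 12.9. Whether such bright markers would show a moderate loss of hepatocytes was not tested. Control 10 stood apart in the 12 genes of the inflammation list, whose mean was 1.74 above the control mean there and -0.67 and -1.06 from it in controls 11 and 12. In whole tissue, fewer cells of a type and less RNA per cell cannot be told apart.

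The first question was how the axis in tumours compared with the liver around them. All 10 genes had a lower mean in tumours than in adjacent liver, with a median log2 difference of -0.84, where the median over all genes was -0.03 and 56% of all genes had a lower mean. The enzyme genes differed most. Hsd3b5 was 9.43-fold lower, Cyp4a12a 7.94-fold, Cyp4a12b 4.03-fold and Igfals 2.99-fold, whereas Ghr was 1.92-fold lower, Igf1 1.66-fold and Stat5b 1.38-fold. Hsd3b5 and Cyp4a12a fell to 2.24 and 2.88 in tumours, below the array medians of 4.37 to 4.50. Dim signal thus limits the size and ranking of these folds. A difference of 2-fold or more was found for 4 of the 10 and for 0.945% of all genes. With limma and Benjamini-Hochberg adjustment over all 23279 genes, 0 of the 10 passed an adjusted p of 0.05, as did 0.155% of all genes. At an unadjusted p under 0.05, 8 of the 10 were lower, all but Bcl6 and Cux2, against 8.32% of all genes. The 10 were not chosen blind to these data, and some vary together, such as Ghr and Cyp4a12a (Pearson r = 0.93 over 14 mouse-level values). The shares of all genes, here and for the lists below, thus give a scale and not a test of the set. Without tumour 93, 2 of the 10 passed after adjustment, where 3.19% of all genes did. These were Ghr (-1.12, SE 0.21, adjusted p = 0.0162) and Igfals (-1.91, SE 0.46, adjusted p = 0.0434). Tumour 93 had the highest Ghr of the 8 tumours and Igfals at the level of liver, so leaving it out enlarges both differences by itself. For 0 of the 10 were the tumour and adjacent arrays fully separate, as the lower tumour arrays were in 0.567% of all genes.

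**Figure D1:**
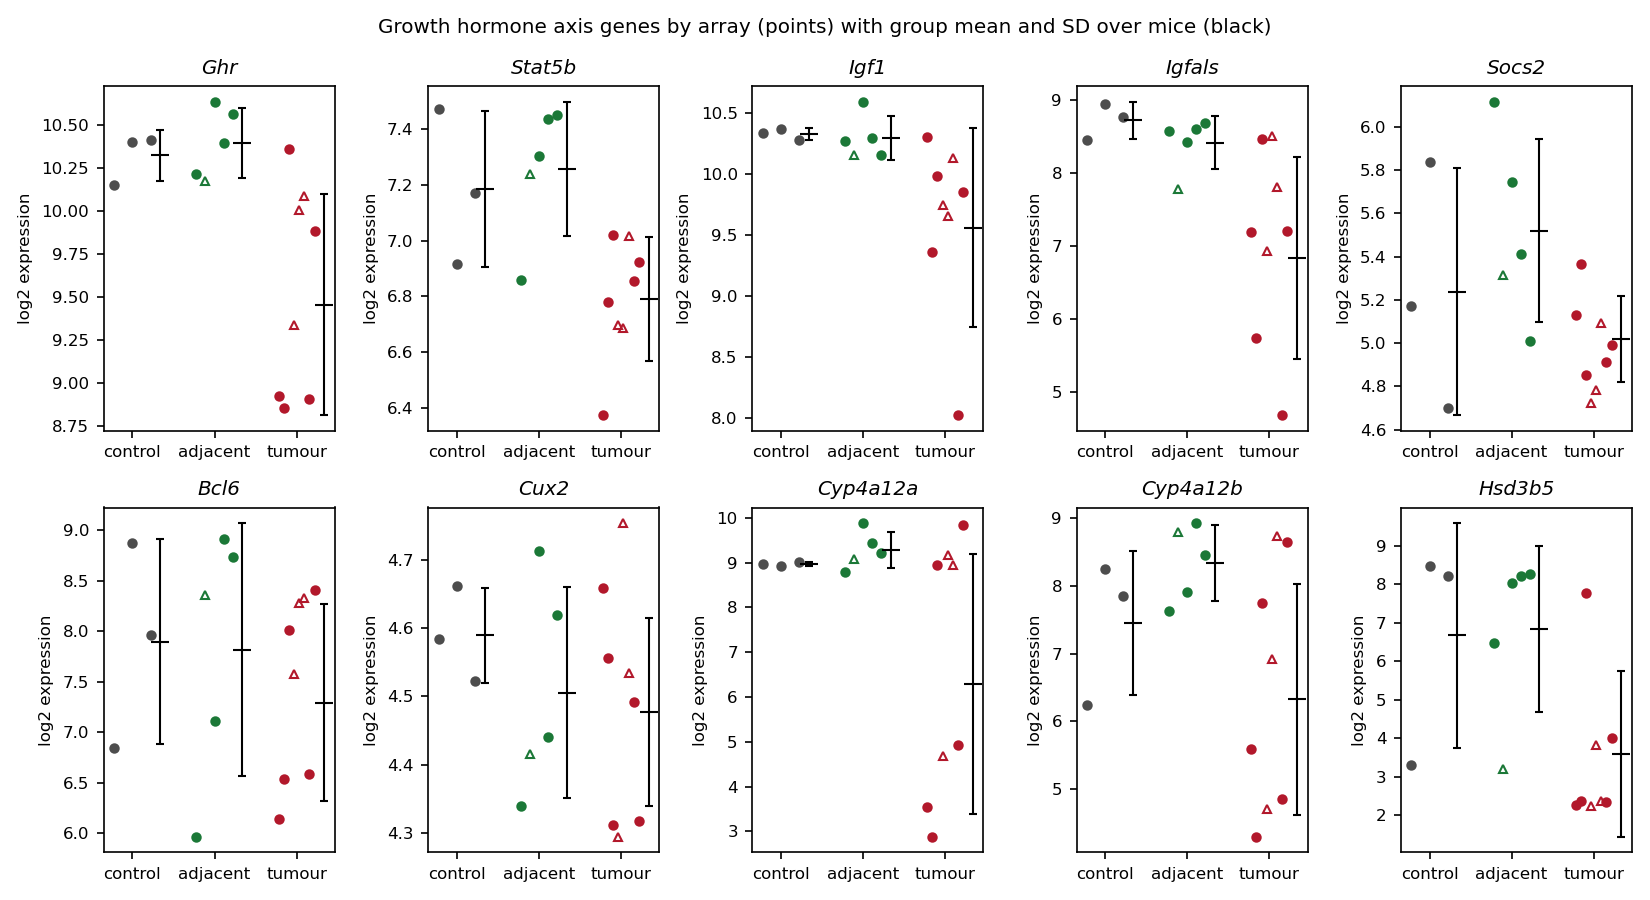
Log2 expression of each of the 10 genes by array, with controls in grey, adjacent livers in green and tumours in red; open triangles are mouse 121, and the black bar is the mean with SD over 3 control, 5 adjacent and 6 tumour mice. Tumours reach below the livers for Ghr, Igf1 and Igfals, Cyp4a12a splits into 4 tumours at 4.94 or less and 4 at 8.95 or more, and Hsd3b5 is high in only 1 tumour.

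Against control liver the 10 genes were again lower on average in tumours, with a median of -0.82 against -0.04 over all genes, of which 57.8% were lower. These comparisons share the tumour arrays. After adjustment 0 of the 10 passed, against 0.0258% of all genes. At an unadjusted p under 0.05, 6 of the 10 were lower, namely Ghr, Stat5b, Igf1, Igfals, Cyp4a12a and Hsd3b5, against 6.88% of all genes. This count depended on single mice: it was 2 without control 12 and 3 without control 10, control 11, adjacent 81, adjacent 123, adjacent 124, adjacent 1931, tumour 81 or tumour 90.

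Adjacent liver and control liver did not differ detectably in any of the 10 genes. The median of the differences was 0.07, 6 genes were nominally higher and 4 lower, and 0 passed the limma test after adjustment, as did 0% of all genes. At an unadjusted p under 0.05 the count was also 0, where it was 4.55% of all genes, and it was 1 without control 11. The largest difference was that of Cyp4a12b, at 0.89 (SE 0.81). Each SE rests on a spread shared by all 3 groups, so a wide spread among tumours widens it here too. For Cyp4a12a (0.31, SE 1.26) the SD was 0.05 in controls, 0.41 in adjacent livers and 2.91 in tumours. Under the 10 alternatives that kept every mouse, the unadjusted limma p of Cyp4a12a between adjacent and control liver ranged from 0.156 to 0.837. For 0 of the 10 were the arrays of these groups fully separate, whereas adjacent arrays all lay below the controls in 2.04% of all genes and all above them in 2.18%.

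**Figure D2:**
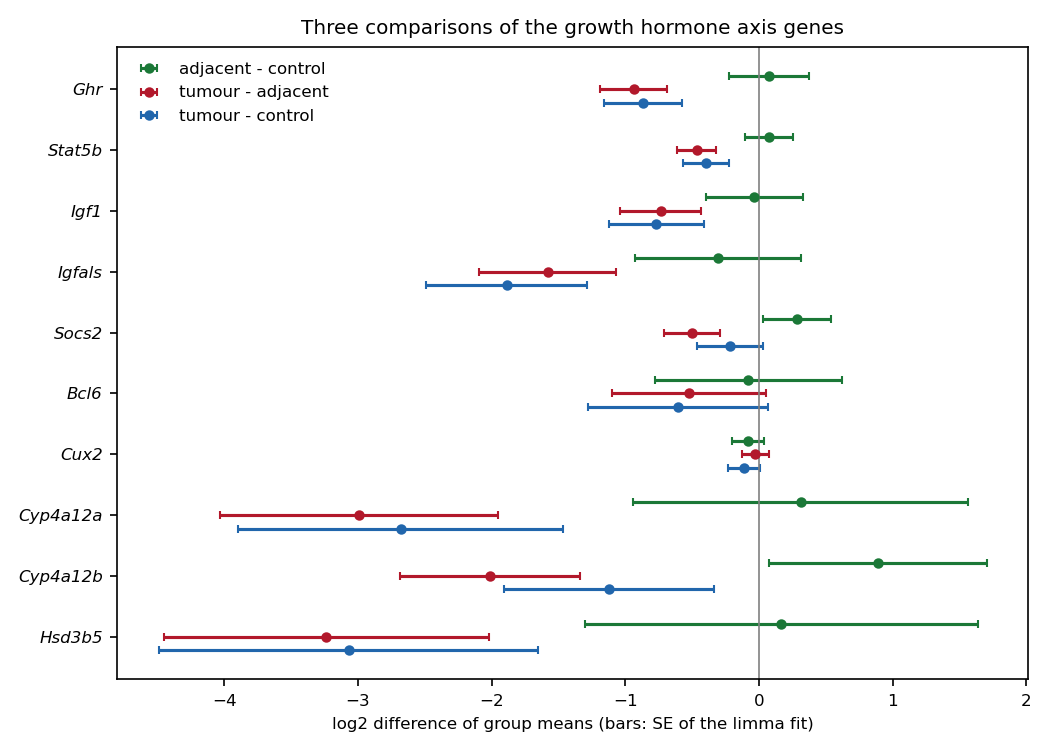
Log2 difference of group means for each gene in the 3 comparisons, with the SE of the limma fit as the bar. This SE rests on a spread shared by all 3 groups, tumours included. The vertical line marks no difference. Tumour differences lie left of 0 for all 10 genes against both kinds of liver, from -0.03 for Cux2 to -3.24 for Hsd3b5 against adjacent liver, while adjacent against control differences lie within 1 SE of 0 for 8 of the 10, all but Socs2 and Cyp4a12b.

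Ghr (Entrez gene 14600, chromosome 15 in the RefSeq annotation of GRCm38.p6), the receptor, was at 10.15, 10.40 and 10.41 in controls 10, 11 and 12. In adjacent liver it was at 10.21, 10.18, 10.63, 10.39 and 10.56 in mice 81, 121, 123, 124 and 1931. In the 8 tumours it ranged from 8.86 to 10.36 with a median of 9.61. In 7 of the 8 tumours, that is all but tumour 93, it lay below every liver. The mean over 6 tumour mice was 9.46 ± 0.64 (SD), where 5 adjacent livers averaged 10.39 ± 0.20 (SD), a log2 difference of -0.94 (SE 0.25, limma adjusted p = 0.0986). The lowest values, 8.86, 8.91 and 8.93, were those of tumours 90, 123 and 81.

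Stat5b (Entrez gene 20851, chromosome 11), the signal transducer, differed by less. It was at 7.47, 6.91 and 7.17 in controls 10, 11 and 12 and at 6.86, 7.24, 7.30, 7.44 and 7.45 in adjacent livers 81, 121, 123, 124 and 1931. Tumours ranged from 6.37 to 7.02 with a median of 6.82, and the tumours of 6 of 6 mice lay below the adjacent mean, although the groups overlapped. The log2 difference from adjacent liver was -0.47 (SE 0.15, adjusted p = 0.149). Within the 4 mice that gave both tissues, with the tumours of mouse 121 averaged, tumour minus own adjacent liver lay between -0.51 and -0.44 (mean -0.47, SD 0.03). On these averages the mice had the same order of Stat5b values in both tissues. Singly, the unnumbered tumour and tumours 2 and 3 of mouse 121 were at -0.54, -0.55 and -0.22. Tumour 3, at 7.02, lay above tumours 123 and 124 (6.85 and 6.92), so single tumours did not keep the order.

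Socs2 (Entrez gene 216233, chromosome 10), a STAT5-induced inhibitor of the receptor, was at 5.17, 5.84 and 4.70 in the 3 controls. In adjacent livers 81, 121, 123, 124 and 1931 it was at 6.12, 5.31, 5.75, 5.41 and 5.01. Tumours ranged from 4.72 to 5.37 (median 4.95), and 5 of the 8 lay below every adjacent liver while 0 lay below every control. The difference from adjacent liver was -0.50 (SE 0.21, adjusted p = 0.271), lower in 4 of 4 mice with both tissues, and that from control was -0.22 (SE 0.25, adjusted p = 0.773) and 0.08 without control 11. The spread between tumour mice (SD 0.20) was smaller than that between adjacent livers (SD 0.42).

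Igf1 (Entrez gene 16000, chromosome 10), the endocrine output, was at 10.33, 10.37 and 10.28 in controls and at 10.27, 10.16, 10.59, 10.30 and 10.15 in adjacent livers 81, 121, 123, 124 and 1931. Tumours ranged from 8.02 to 10.30 with a median of 9.80, and 7 of the 8 lay below every liver. The exception was tumour 81, whose value of 10.30 lay 0.03 above that of its adjacent liver although its Ghr was 1.29 lower than there on the log2 scale. Tumour 123, at 8.02, was 2.57 below its own adjacent liver. The difference between tumour and adjacent means was -0.73 (SE 0.30, adjusted p = 0.257), and without tumour 123 it was -0.43 (SE 0.15, adjusted p = 0.28).

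Igfals (Entrez gene 16005, chromosome 17), the serum partner of IGF1, spread more widely than Igf1. It was at 8.45, 8.96 and 8.77 in controls and at 8.58, 7.79, 8.42, 8.61 and 8.69 in adjacent livers 81, 121, 123, 124 and 1931. Tumours ranged from 4.67 to 8.52 with a median of 7.20. Tumours 81, 90, 123 and 124 and the unnumbered tumour of mouse 121, 5 of the 8, lay below every liver, whereas tumour 93 and tumour 2 of mouse 121 were at 8.47 and 8.52, within the range of the livers. The mean was 6.84 ± 1.39 (SD, n = 6) in tumours, where 5 adjacent livers averaged 8.42 ± 0.37 (SD), a difference of -1.58 (SE 0.51, adjusted p = 0.155).

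Bcl6 (Entrez gene 12053, chromosome 16), which growth hormone signalling represses, varied as much between livers as between tumours. It was at 6.85, 8.87 and 7.97 in controls and at 5.97, 8.36, 7.11, 8.91 and 8.74 in adjacent livers 81, 121, 123, 124 and 1931. Tumours ranged from 6.14 to 8.41 with a median of 7.79, inside the range of the livers. The difference from adjacent liver was -0.53 (SE 0.58, adjusted p = 0.723). The 4 mice with both tissues had the same order in both, mouse 81 lowest (5.97 and 6.14) and mouse 124 highest (8.91 and 8.41). With the tumours of mouse 121 averaged, tumours differed from own adjacent liver by between -0.52 and 0.17. Singly, the unnumbered tumour of mouse 121 was at -0.78 and its tumours 2 and 3 at -0.08 and -0.03.

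Cux2 (Entrez gene 13048, chromosome 5), the female-enriched repressor, was dim and nearly flat. Controls lay between 4.52 and 4.66, adjacent livers between 4.34 and 4.71 and tumours between 4.29 and 4.75, near the array medians. The difference between tumour and adjacent liver was -0.03 (SE 0.10, adjusted p = 0.928), with a change of sign when tumour 93, tumour 124, adjacent 123 or adjacent 1931 was left out, and that between tumour and control was -0.11 (SE 0.12).

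Cyp4a12a (Entrez gene 277753) and Cyp4a12b (Entrez gene 13118), neighbouring genes on chromosome 4, encode male-specific fatty acid hydroxylases. Their sequences are closely similar and no source used here gives the probes, so signal of one in the probe set of the other is possible and was not tested. Cyp4a12a was at 8.98, 8.92 and 9.02 in controls and at 8.79, 9.08, 9.88, 9.45 and 9.22 in adjacent livers 81, 121, 123, 124 and 1931. The tumours lay at separate levels. It was at 2.88, 3.55, 4.68 and 4.94 in tumour 90, tumour 81, the unnumbered tumour of mouse 121 and tumour 123. It was at 8.95, 8.95, 9.16 and 9.84 in tumour 93, tumours 3 and 2 of mouse 121, and tumour 124, within the range of the livers. The tumour mean of 6.29 ± 2.91 (SD, n = 6) therefore describes no single tumour. The difference from adjacent liver was -2.99 (SE 1.04, adjusted p = 0.18).

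Cyp4a12b differed more between livers, at 6.24, 8.25 and 7.84 in controls and at 7.62, 8.79, 7.90, 8.92 and 8.45 in adjacent livers 81, 121, 123, 124 and 1931. The same 4 tumours had the lowest values, 4.30 in tumour 90, 4.72 in the unnumbered tumour of mouse 121, 4.87 in tumour 123 and 5.59 in tumour 81. Tumour 2 of mouse 121, at liver level for Cyp4a12a, was at 6.92 for Cyp4a12b, below every adjacent liver but above control 10. The difference from adjacent liver was -2.01 (SE 0.67, adjusted p = 0.167) and from control -1.12 (SE 0.79, adjusted p = 0.598).

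Hsd3b5 (Entrez gene 15496, chromosome 3), a male-specific member of the 3-beta-hydroxysteroid dehydrogenase family, was the gene with the widest spread among livers. It was at 8.48 and 8.22 in controls 11 and 12 but at 3.31 in control 10. In adjacent livers 1931, 124 and 123 it was at 8.25, 8.22 and 8.03, in adjacent liver 81 at 6.48 and in adjacent liver 121 at 3.20. Low Hsd3b5 thus occurred in non-tumoral liver whose Cyp4a12a was at the usual level. In tumours, 5 of the 8 lay between 2.24 and 2.36, tumour 2 of mouse 121 was at 3.82 and tumour 124 at 4.02, whereas tumour 93 was at 7.78. All the tumour values but that of tumour 93 lay below the array medians. The difference from adjacent liver was -3.24 (SE 1.22, adjusted p = 0.214) and from control -3.07 (SE 1.42, adjusted p = 0.395). Without control 10, adjacent liver was 1.51 below control (SE 1.47, adjusted p = 0.999), where it was 0.17 above with it, and tumours were 4.75 below control (SE 1.43, adjusted p = 0.182). Control 10 was the array high in inflammation genes. Adjacent liver 121 was high in the 6 lymphocyte markers present, at 1.23 above their control mean where the other adjacent livers lay between -0.23 and -0.0082. The part of either in the Hsd3b5 values was not tested.

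**Figure D3:**
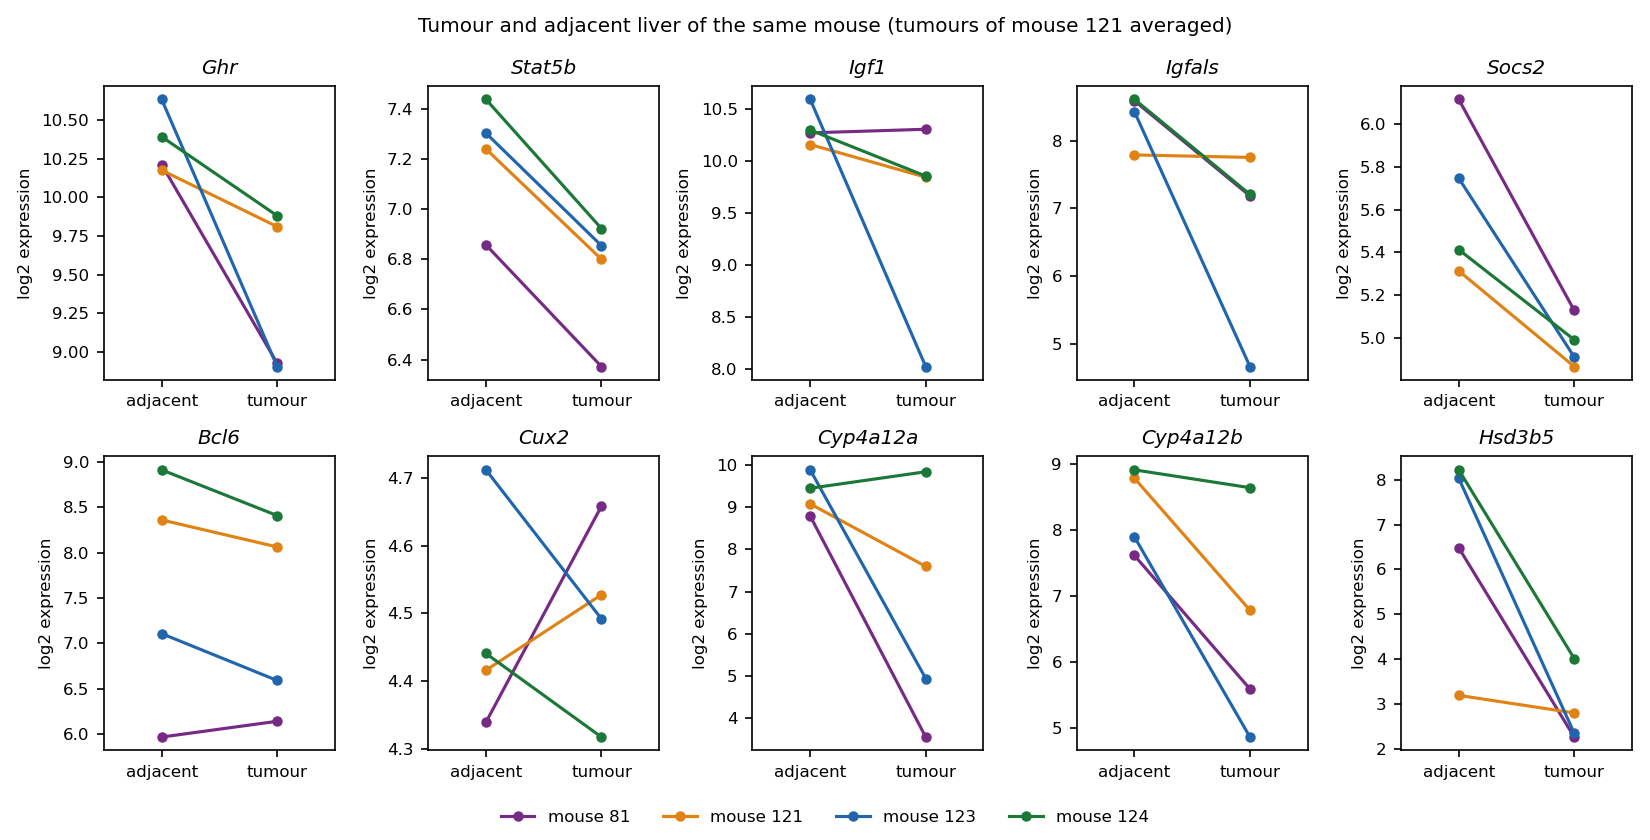
Log2 expression in adjacent liver and tumour of the 4 mice that gave both, 1 line per mouse, with the 3 tumours of mouse 121 averaged. The lines of Stat5b run nearly parallel, with differences between -0.51 and -0.44, those of Bcl6 keep the order of the mice, and those of Igfals, Cyp4a12a and Hsd3b5 differ in slope from mouse to mouse.

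In the mice with both tissues, tumour was lower than own adjacent liver in 10 of the 10 genes in mouse 123, in 9 in mice 121 and 124 and in 7 in mouse 81. The median difference over the 10 genes was -2.15 in mouse 123, -1.14 in mouse 81, -0.47 in mouse 124 and -0.38 in mouse 121. Ghr, Stat5b, Igfals, Socs2, Cyp4a12b and Hsd3b5 were lower in 4 of 4 mice, Igf1, Bcl6 and Cyp4a12a in 3 of 4, and Cux2 in 2 of 4. All these values use the average of the tumours of mouse 121, which for Igfals was only 0.04 below adjacent liver. Singly, its tumours 2 and 3 were 0.73 and 0.02 above adjacent liver in Igfals, and the unnumbered tumour was 0.86 below. Tumour 2 was also above it in Hsd3b5 (0.62) and Cyp4a12a (0.09), where the unnumbered tumour and tumour 3 were below.

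The tumours differed in how many of the genes were low. The unnumbered tumour of mouse 121 lay below all 8 livers in 8 of the 10 genes, tumours 90 and 123 in 7, and tumour 81 in 6. Over all genes the share below all 8 livers was 17.9%, 20.7%, 20% and 19.5% in these tumours. Tumour 124 lay below all livers in 4 genes (14.3% of all genes), tumours 2 and 3 of mouse 121 in 3 each (18.7% and 12.8%), and tumour 93 in 2 (10.7%), which were Igf1 and Cux2. Tumours of 1 mouse could thus differ widely. In mouse 121, Cyp4a12b was at 4.72 in the unnumbered tumour, 6.92 in tumour 2 and 8.73 in tumour 3, beside 8.79 in the adjacent liver.

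The genes were not uniformly low within a tumour either. Tumour 81 combined low Ghr, the lowest Stat5b (6.37) and low Cyp4a12a (3.55) with Igf1 at the level of normal liver. Tumour 124 combined the highest Cyp4a12a of the tumours (9.84) with Igfals at 7.21 and Hsd3b5 at 4.02, both lower than in its own adjacent liver by 1.40 and 4.20 on the log2 scale. Tumour 90 had the lowest Ghr, Cyp4a12a and Cyp4a12b and the highest Socs2 of the 8 tumours. Tumour 93 lay within the range of the 8 livers in 8 of the 10 genes, with Igf1 at 9.98 and Cux2 at 4.31 just below it.

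**Figure D4:**
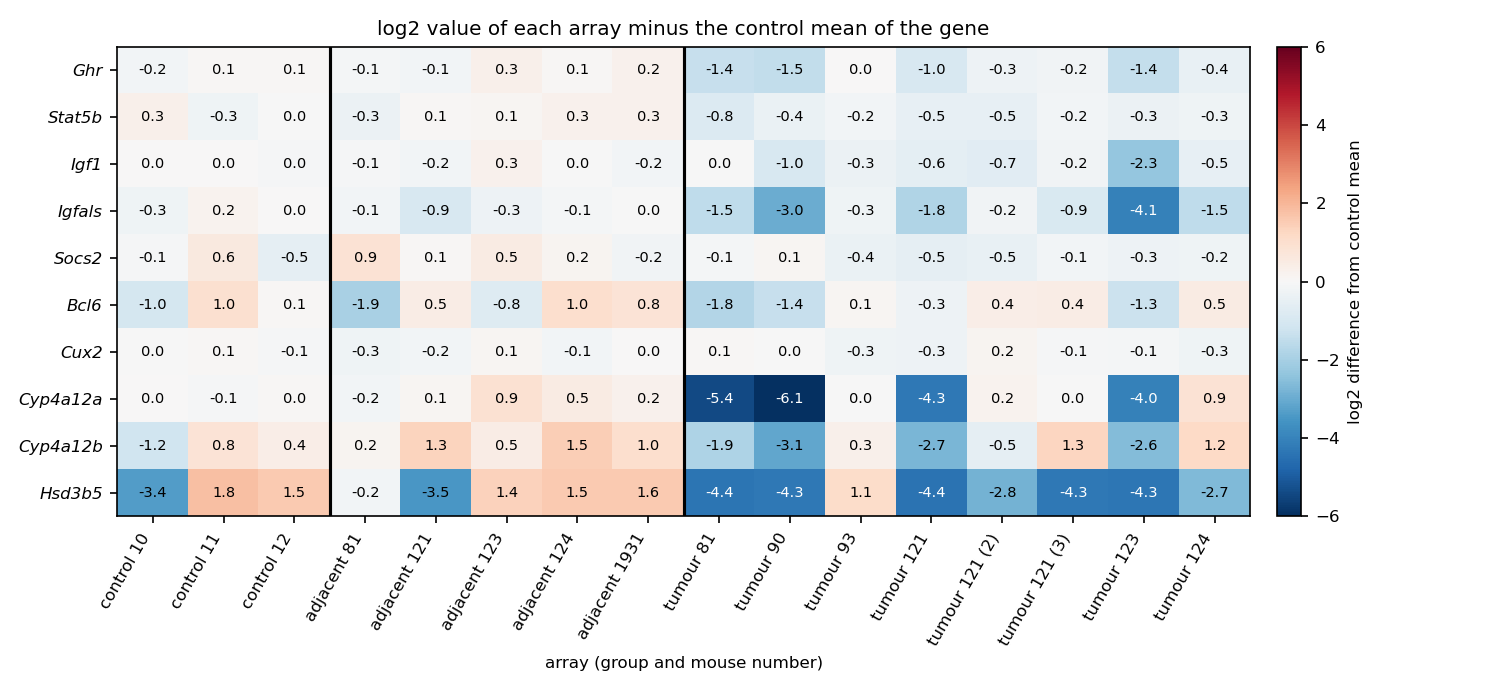
Log2 value of each array minus the control mean of the gene, for the 10 genes (rows) and 16 arrays (columns); black lines separate control, adjacent and tumour arrays, and the colour scale runs from -6 to 6. Tumours 81, 90, 123 and the unnumbered tumour of mouse 121 are blue in Ghr, Igfals and the enzyme genes, and Hsd3b5 is also blue in control 10 and adjacent 121.

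Markers of other cells also differed between these arrays. Of the 12 inflammation genes 0 passed after adjustment between tumour and adjacent liver, where 0.155% of all genes did. At an unadjusted p under 0.05, 2 were lower and 0 higher, where 8.32% and 6.95% of all genes were. In all, 6 of the 12 were nominally higher and 6 lower. Saa1 and Saa2, acute-phase proteins, were at -0.57 (SE 0.54) and -0.34 (SE 0.54), whereas Lcn2 and S100a8, named after their values were seen, were at 1.85 (SE 0.96) and 1.12 (SE 0.85). The 2 with an unadjusted p under 0.05 were the interleukin-6 receptor genes Il6ra (-0.68, SE 0.26) and Il6st (-0.67, SE 0.15). Macrophage markers differed in opposite directions, with 2 of 6 nominally higher and 4 lower in tumours than in adjacent liver. The 4 tumours with the lowest Cyp4a12a were also those with the lowest Clec4f, a marker of resident liver macrophages, at 4.17 to 4.36 against 6.08 to 9.37 in the livers. Cd68, a general macrophage marker, was instead at 8.06 to 9.24 in these 4 tumours, against 5.96 to 8.32 in the livers other than control 10, which was at 9.09. Of the 7 endothelial markers, 3 were higher and 2 lower at an unadjusted p under 0.05, where 6.95% and 8.32% of all genes were. After adjustment 0 of the 7 passed. Of those of liver sinusoids, Clec4g was at -2.41 (SE 0.68) and Stab2 at -1.31 (SE 0.39), but Lyve1 was at -0.10 (SE 0.35). Kdr was at -0.23 (SE 0.22), while Emcn was at 1.69 (SE 0.33), Pecam1 at 1.03 (SE 0.26) and Cdh5 at 0.84 (SE 0.29). Clec4g was at 3.98 to 5.41 in the 4 tumours with the lowest Cyp4a12a, at 7.46 to 8.52 in the other tumours and at 8.28 to 8.93 in the livers. The 6 macrophage markers had a summed linear signal of 304 to 3070 in controls, 352 to 1140 in adjacent livers and 412 to 1028 in tumours. Of the 7 stellate cell and fibroblast markers, 5 were higher and 1 lower in tumours than in adjacent liver at an unadjusted p under 0.05. Over all genes 6.95% were higher and 8.32% lower. The 1 lower was Lrat, at -1.06 (SE 0.30), and 0 of the 7 passed after adjustment. These 7 had a summed linear signal of 335 to 371 in controls, 268 to 564 in adjacent livers and 460 to 912 in tumours. The 8 hepatocyte markers summed to 31701 to 34604, 31714 to 34638 and 27341 to 34005. The values have no true zero. Ms4a1, a B cell marker, lay between 2.54 and 3.10 on all arrays, below the array medians, and Krt19, a cholangiocyte keratin, lay between 3.40 and 5.24, with its highest value in tumour 81. Single markers do not stand for their lists. The 6 lymphocyte markers averaged 1.13 above their control mean in tumour 3 of mouse 121 and -0.30 to 0.53 from it in the other tumours. The 5 cholangiocyte markers were at 1.01 in that tumour, 0.82 in tumour 81 and -0.31 to 0.15 in the rest. Against adjacent liver, Sox9, named after its value was seen, was at 0.89 (SE 0.29) and Krt19 at -0.05 (SE 0.25). The part of these cells in the results was not tested.

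STAT5 binds the palindrome TTCNNNGAA, and the promoters of the genes were searched for it, on both strands at once since the motif is its own reverse complement, and for a wider form with 4 instead of 3 free bases between its arms. RefSeq start sites of GRCm38.p6 gave 13 windows for 7 of the 10 genes, from 250 bases before to 50 after a start. TTCNNNGAA was present in 4 of these 13 windows, in Bcl6 and Igfals, and in 8.30% of all 32851 windows. Counted by gene, it was present in 2 of the 7, and in 9.55% of all 27025 genes with windows. The wider form was present in 1 window, that of Hsd3b5, and in 6.95% of all windows, or 8.01% of all genes with windows. These matches are descriptions of sequence and not sites of binding, and the absence of a match in the windows of Ghr, Stat5b, Igf1 and Cux2 says only that these letters are not there. The 7 matches are shown with their neighbouring bases because Igfals and Hsd3b5 were among the genes lowest in tumours while Bcl6 was not, 5′ to 3′ on the strand of the gene, with the motif in capitals.
Igfals, 236 bases before a start, chr17:24877598-24877627, plus strand: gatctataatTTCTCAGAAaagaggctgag
Igfals, 58 bases before a start, chr17:24878163-24878192, plus strand: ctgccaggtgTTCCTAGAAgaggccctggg
Bcl6, 118 bases before a start, chr16:23988951-23988980, minus strand: agcaaattagTTCTCAGAAttccagaggcc
Bcl6, 168 bases before a start, chr16:23981432-23981461, minus strand: aggccgcggcTTCCTGGAAagttacttctc
Bcl6, 122 bases before a start, chr16:23981386-23981415, minus strand: ggcaggagtgTTCTGTGAAatccttagagc
Bcl6, 88 bases before a start, chr16:23981352-23981381, minus strand: atcgactacgTTCCGGGAAtgagagggctg
Hsd3b5, 203 bases before its start, chr3:98645718-98645747, minus strand: actaaggaggTTCTGTAGAAacagtcctgc

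The 250 bases upstream of Hsd3b5, the gene with the largest difference, lie at chr3:98645535-98645784 on the minus strand in the same RefSeq table and have a GC content of 45.2%. The match to the wider form is in capitals.
Hsd3b5 upstream: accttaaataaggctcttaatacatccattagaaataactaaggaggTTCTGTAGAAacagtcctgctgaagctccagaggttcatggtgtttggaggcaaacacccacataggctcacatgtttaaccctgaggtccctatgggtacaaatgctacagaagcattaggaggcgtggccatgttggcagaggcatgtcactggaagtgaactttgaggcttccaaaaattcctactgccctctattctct

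Other parts of the signalling chain gave no calls. Of 19 further genes of the receptor pathway, including kinases, phosphatases, adaptors and SOCS proteins, 0 passed after adjustment between tumour and adjacent liver. At an unadjusted p under 0.05 the count was also 0, where it was 15.3% of all genes. The median difference was 0.0049 against -0.03 over all genes. Jak2, the receptor's kinase, was at 0.22 (SE 0.19) and Stat5a, the close relative of Stat5b, at -0.11 (SE 0.17). The absence of calls does not show equal levels: Lepr, the leptin receptor gene on this list, was at 1.60 (SE 0.90), with values of 7.09 to 8.32 in tumours 81, 90 and 123 and of 3.09 to 4.14 in the others. Of 15 liver transcription factors 0 passed after adjustment, and 4 were lower at an unadjusted p under 0.05, where 8.32% of all genes were. Hnf4a was at -0.09 (SE 0.13) and Onecut1 at -0.68 (SE 0.46). Among the 4, named after their values were seen, were Nr1h4, the bile acid receptor (-0.88, SE 0.27), and Cebpa (-0.49, SE 0.18).

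Genes that partner IGF1 in serum and tissue were mixed. Of 12, 0 passed after adjustment, and at an unadjusted p under 0.05 4 were higher and 1 lower in tumours than in adjacent liver, where 6.95% of all genes were higher and 8.32% lower. Igf2, the fetal growth factor, was at 0.81 (SE 0.41) and Igfbp1, an insulin-suppressed binding protein, at 1.65 (SE 0.70, adjusted p = 0.269). Igfbp3, named after its value was seen and a member of the same serum complex as Igfals, was at 2.34 (SE 0.58, adjusted p = 0.0843), opposite in direction to Igfals. It was highest in tumours 90 and 123 (10.60 and 10.45), which had the lowest Igfals values, 5.74 and 4.67.

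Of 5 genes reported to be induced by STAT5 in liver and to restrain growth, 0 passed after adjustment, and they had opposite signs. Nox4, an oxidase, was at -1.11 (SE 0.31, adjusted p = 0.115) and Bbc3, a pro-apoptotic gene, at 0.025 (SE 0.14). Bcl2l11, Cdkn2b and Cdkn1a, named after their values were seen, were at 0.89 (SE 0.36), 0.99 (SE 0.30) and 1.30 (SE 0.47). Of 8 lipid genes known to rise in livers that lack STAT5, 0 passed after adjustment and 1 was higher at an unadjusted p under 0.05, where 6.95% of all genes were. Cd36 and Pparg were at 0.04 (SE 0.51) and 0.18 (SE 0.35), and the 1 gene was Fabp4, a fatty acid binding protein, at 1.98 (SE 0.46, adjusted p = 0.077). Against control, 7 of these 8 were nominally higher in each mutant tissue and 0 passed after adjustment. In tumours 4 had an unadjusted p under 0.05 (5.65% of all genes were higher) and the median was 0.61. In adjacent liver 2 did, Cidec at 1.89 (SE 0.65) and Plin2 at 0.56 (SE 0.19), where 1.61% of all genes were higher, and the median was 0.57. These comparisons share the controls.

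Male-biased and female-biased genes beyond the 10 gave a broader view of the sex-specific programme. Of 16 male-biased genes 0 passed after adjustment, but 9 were lower and 1 higher in tumours than in adjacent liver at an unadjusted p under 0.05, with a median of -1.22. Over all genes 8.32% were lower and 6.95% higher. Between adjacent liver and control, 11 of the 16 were nominally lower, 5 of them at an unadjusted p under 0.05 where 2.94% of all genes were, and 0 passed after adjustment. Cyp2d9 was at -0.22 (SE 0.24) and Cyp7b1, an oxysterol hydroxylase, at -1.42 (SE 0.66, adjusted p = 0.321). Elovl3, a fatty acid elongase named after its values were seen, showed the same separation of tumours as Cyp4a12a. It was between 2.67 and 4.35 in tumours 81, 90, 123 and the unnumbered tumour of mouse 121, and between 8.27 and 10.14 in the other tumours, where livers lay between 8.48 and 10.70.

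Of 19 female-biased genes 0 passed after adjustment, and 5 were higher and 2 lower at an unadjusted p under 0.05, with a median of 0.20. Over all genes 6.95% were higher and 8.32% lower, so the number lower is near the background. Cyp2b9 was at 2.40 (SE 1.09, adjusted p = 0.311) and Cyp2b13 at 0.98 (SE 0.35, adjusted p = 0.191). Cyp2a4, named after its value was seen, was between 10.10 and 11.64 in 7 of the 8 tumours and at 5.95 in tumour 3 of mouse 121. Tumour 93, at liver level for the male enzymes, was at 10.10, above every liver. Adjacent livers 81 and 123 were also high, at 9.70 and 9.34, against 5.97 to 7.15 in the other adjacent livers. The mean of the female-biased genes was 1.07 above their control mean in tumour 93 and 0.19 above it in tumour 81, whereas male-biased genes were 0.21 and 2.08 below theirs. A few genes such as Cyp2a4 weigh on these means. The median female-biased gene was at 0.54 in tumour 93 but at -0.12 in tumour 81, -0.016 in tumour 3 of mouse 121 and -0.065 in tumour 124.

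**Figure D5:**
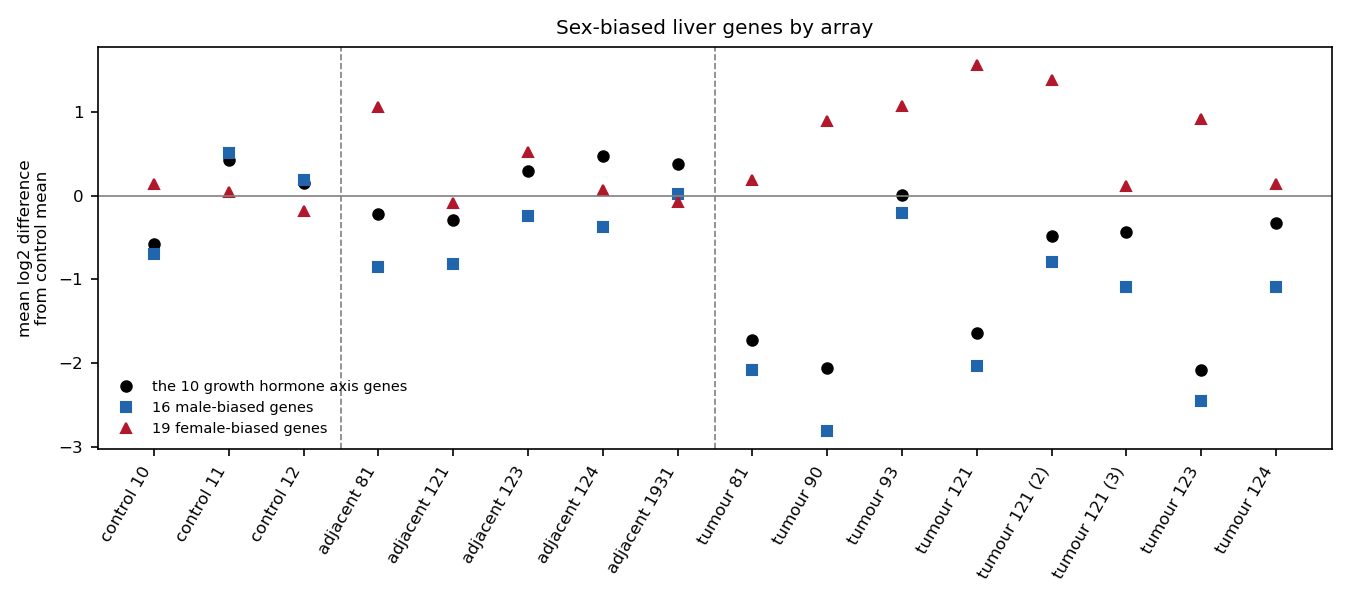
Mean log2 difference from the control mean, by array, for the 10 growth hormone axis genes (black circles), 16 male-biased genes (blue squares) and 19 female-biased genes (red triangles); dashed lines separate control, adjacent and tumour arrays. In tumours the circles and squares lie between 0.01 and -2.81 with the square below the circle in each of the 8, while the triangles lie between 0.12 and 1.56.

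The genes whose pattern over the 14 mouse-level values was most like that of a member differed from member to member. They are given by Pearson's r as a description, over points that share tissue and group. For Cyp4a12a they were Keg1 (r = 0.983), Glyat (0.976), Slc25a16 (0.970), Ces1f (0.969) and Dpp4 (0.967). Without tumours 90 and 81, the values farthest from the median, r lay between 0.902 and 0.963, and among the 8 livers alone between 0.0829 and 0.623. The likeness thus lay mostly in the tumours. For Hsd3b5 they were Fzd8, a Wnt receptor gene (r = 0.948), Klb, the co-receptor of the liver for endocrine FGFs (0.933), Cmtm8 (0.923), Mtfp1 (0.917) and Zfp454 (0.905). Here r among the 8 livers alone was between 0.790 and 0.950, so these genes were also low in the livers with low Hsd3b5.

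For Igf1 the most alike were S100a1 (r = 0.956), Upp2 (0.949), Gnmt (0.931), Cd59a (0.928) and Hpd, an enzyme of tyrosine breakdown (0.920). Without tumours 123 and 90 r was between 0.437 and 0.536, so this likeness rests on those tumours. For Socs2 they were AF067063 (r = 0.875), Otulin (0.848), Slco6c1 (0.828), Eif4ebp3 (0.825) and Ropn1 (0.824). Without adjacent 81 and control 11 these lay between 0.557 and 0.805. AF067063, Slco6c1 and Ropn1 were dim, with group means of 2.13 to 2.95, below the array medians. Their likeness to Socs2 is thus one of small differences in dim signal.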

How the data were processed

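The authors deposited log2 expression values, 1 per probe set and array, which span 1.47 to 12.9. Per the submitters' processing notes, the tools were RMA and Partek, with no version, role or order. RNA was amplified before labelling, per the labels' protocols. The sources used here give no chip model, probe sequence, genome build or array batch. RMA equalises array distributions and compresses differences of dim genes. In the platform annotation 23281 of the 24479 probe sets carried 1 gene symbol, 0 several and 1198 none; where a symbol had 2 probe sets the brighter was used, which left 23279 genes.

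The 3 tumours of mouse 121 were averaged, and 3 controls, 5 adjacent livers and 6 tumour mice were fitted together with limma 3.58.1 (R 4.3.3; lmFit, eBayes with an intensity trend, no block). The Benjamini-Hochberg adjustment ran over all genes, with a threshold of 0.05. The fit was also run on simulated data, with unrelated samples and the same spread of a gene in every group. That run cannot show how the test behaves for genes with a wider spread in tumours, such as Cyp4a12a, or for mice that gave both tissues. Whether groups overlap was judged over all 16 arrays. Titles number the animals, so p-values reflect variation among animals. The labels do not say if 1931 and 93 are 1 animal, and they were treated as 2.

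The 10 genes and all lists were chosen with earlier results of these data known. The rule was to name beside the 10 up to 4 members of each list past the threshold, otherwise the first 2 present, and the 5 genes most like Igf1, Socs2, Cyp4a12a and Hsd3b5. No list member passed, so the rule gave the first 2 of each list. The endothelial markers were named in full. Other list genes, among them Fabp4, Cd68, Lrat, Cidec and Plin2, were named after their values were seen. Of the genes listed, 14 were not among those used here. Deviations of tumour and adjacent liver from their group means correlated at 0.0349 to 0.0998 in the 4 mice with both tissues.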

Additional observations from a re-analysis of the deposited data

Results flagged for a closer look

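In 20 sets of values, the 10 genes in adjacent livers and in tumour mice, 2 single values lay farther from the others than Dixon's 95% limit allows, and chance alone marks about 1 in 20 sets. Stat5b was lowest in tumour 81, at 6.37, while the next lowest tumour mouse was at 6.78 (gap of 0.627 of the range, limit 0.625). Adjacent liver of the same mouse also had the lowest Stat5b of the adjacent livers, 6.86. Hsd3b5 was highest in tumour 93, at 7.78, where the next tumour mouse was at 4.02 (gap of 0.683 of the range). Without tumour 93 the difference of Hsd3b5 between tumour and adjacent liver was -4.07 (SE 1.05, limma adjusted p = 0.0531). Leaving out the tumour with the highest Hsd3b5 enlarges this difference by itself, so the p-value is no further test of the gene.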

How the results depend on the processing

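With the leave-one-mouse-out fits, the number of the 10 genes past an adjusted p of 0.05 between tumour and adjacent liver ranged from 0 to 2, and it was 2 only without tumour 93 (Ghr -1.12, Igfals -1.91). It was 0 under the 11 other alternatives, among them mouse as a replicate block, random or fixed in the 4 mice with both tissues, and 0 under every alternative in the other comparisons. At an unadjusted p under 0.05 the count against adjacent liver was 7 to 8 (6 to 8 with a mouse left out), and against control 2 when only these 2 groups were fitted, otherwise 5 to 6 (2 to 6 with a mouse left out). Over all genes, 36 passed between tumour and adjacent liver, against 22 after quantile normalization, 16 after median centring, 181 with a filter on dim genes, 136 with array weights, 8 with only the 2 groups, 87 with 8 separate tumours, 157 with the unnumbered tumour of mouse 121 alone, 206 with the random replicate block, 0 with the fixed replicate block and 5 to 743 with a mouse left out. Between tumour and control 6 passed, against 35, 3 without the intensity trend, 31, 33, 24 with the random replicate block, and 0 to 242.

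Signs turned for differences that no test called. With a mouse left out, the difference between adjacent and control liver ranged from -0.012 (without control 10) to 0.13 for Ghr, from -0.063 (without control 11) to 0.22 for Stat5b, from -0.11 to 0.00072 (without adjacent 1931) for Igf1, from -0.60 to 0.41 for Bcl6 (above 0 without control 11, adjacent 81 or adjacent 123) and from -1.51 (without control 10) to 1.08 for Hsd3b5 (also below 0 without adjacent 123, 124 or 1931). Between tumour and adjacent liver Cux2 ranged from -0.070 to 0.024 and was at 0.022 with the fixed replicate block. Between tumour and control Socs2 ranged from -0.49 to 0.082 (without control 11). The cause was not tested. Signal near the array medians limits Cux2 and Socs2.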

Other observations

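Some genes of the lists, chosen after their values were seen, differed between single arrays. Lepr, the leptin receptor gene, was at 8.32, 7.09 and 7.92 in tumours 81, 90 and 123, the 3 with the lowest Ghr, against 3.09 to 4.14 in the other tumours and 2.36 to 4.93 in the livers. Its difference between tumour and adjacent liver was 1.60 (SE 0.90, limma adjusted p = 0.429). Cish, a STAT5-induced inhibitor of cytokine receptors, was highest in adjacent livers 81 and 123, at 7.26 and 6.71, against 4.17 to 5.90 in the other livers, and these were also the adjacent livers with the highest Socs2, the highest Cyp2a4 and the lowest Bcl6. Esr1, the oestrogen receptor gene, was at 6.84 to 7.44 in controls and at 5.88 to 6.29 in adjacent livers, with no overlap (-1.16, SE 0.25, limma adjusted p = 0.701).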
